A study of Homo sapiens with 4 samples.

Results

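The RNA of 8 replacement histone variant genes (H3F3A, H3F3B, CENPA, H2AFZ, H2AFV, H2AFX, H2AFY and H2AFJ) was followed in diffuse large B-cell lymphoma cells treated with the BET inhibitor JQ1. They were taken by name from a table of 41507 genes, and their 20 transcripts from a table of 67765. SU-DHL-5 and Toledo, both established lymphoma lines labelled as B lymphocytes, received either JQ1 at 1 µM or its solvent DMSO for 6 h by the labels; a legend of the study gives a longer time, so the exposure is in doubt. Each of the 4 conditions was 1 sample with 2 libraries, prepared with a stranded mRNA kit that keeps polyadenylated RNA, and nothing says whether the libraries came from separate cultures. With n = 1 per condition no difference within a line was tested, and each library's value is given with a 95% exact binomial interval of each ratio that covers counting error only. Each line is 1 established culture, so a difference between lines is one between those cultures.

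Most histone protein is made in S phase from genes that lie in clusters, lack introns and give RNAs that end in a stem-loop instead of a poly(A) tail. Replacement variants are encoded elsewhere, mostly by genes with introns and polyadenylated RNA, and most are made throughout the cell cycle, so that chromatin can exchange histones outside replication. H3.3 (H3F3A and H3F3B) marks active genes and also pericentromeric and telomeric repeats, CENP-A marks centromeres, H2A.Z (H2AFZ and H2AFV) flanks promoters, H2A.X (H2AFX) is phosphorylated around DNA breaks, and macroH2A1 (H2AFY) carries a macrodomain beside its histone fold. JQ1 displaces the BET proteins, readers of acetylated histone tails, from chromatin.

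The levels are RPKM, reads normalized for the length of the feature and for the mapped reads of the library, from 14617583 to 17679831 mapped reads per library, of which 94.8% to 95.5% were on genes. A gene was called higher or lower when the means of both samples, each with 0.1 RPKM added, differed more than 1.5-fold and both libraries of one sample lay beyond both of the other, among genes of at least 1 RPKM on average over the samples compared. HEXIM1, a well-known JQ1 responder, was at 4.35 and 3.89 RPKM in the DMSO libraries of SU-DHL-5 and at 22.4 and 23.0 RPKM with JQ1. In Toledo it was at 4.04 and 3.94 RPKM with DMSO and at 23.9 and 24.5 RPKM with JQ1. MYC had a log2 ratio of -0.29 for SU-DHL-5 and 0.03 for Toledo. The 6 B cell markers were all detected, at a summed 884 to 999 RPKM in SU-DHL-5 with DMSO and 629 to 637 RPKM with JQ1, and at 886 to 947 RPKM (DMSO) and 609 to 627 RPKM (JQ1) for Toledo. The 8 markers of other cell types summed to 3.10 RPKM at most, and 2 of them were at 0 in every library.

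Some members make several RNAs that differ in a single exon, and these exons are shown because the levels of such RNAs differed in direction with JQ1 or between the lines. The transcripts were identified by matching their lengths and ends to the exon chains of GENCODE release 29 (GRCh38). H2AFY, at chr5:135334381-135399887 on the minus strand, uses either of a pair of exons within the macrodomain. macroH2A1.1, whose macrodomain binds ADP-ribose and related NAD metabolites, uses the 91-base exon at chr5:135350823-135350913, and macroH2A1.2, which does not bind them, uses the 100-base exon at chr5:135352946-135353045. The CENPA exon of 78 bases at chr2:26792756-26792833 on the plus strand is present in the RNA for the CENP-A of 140 residues and skipped in the RNA for a form of 114 residues. The exons are shown here within the spliced RNA, 5′ to 3′, with the exon in capitals and 15 bases of each neighbouring exon in lower case.
macroH2A1.1 exon: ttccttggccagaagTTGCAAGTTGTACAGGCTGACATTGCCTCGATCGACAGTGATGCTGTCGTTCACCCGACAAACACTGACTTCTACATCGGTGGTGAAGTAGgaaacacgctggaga
macroH2A1.2 exon: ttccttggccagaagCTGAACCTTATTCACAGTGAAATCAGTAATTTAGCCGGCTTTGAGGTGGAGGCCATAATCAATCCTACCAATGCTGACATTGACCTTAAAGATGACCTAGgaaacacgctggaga
CENPA exon: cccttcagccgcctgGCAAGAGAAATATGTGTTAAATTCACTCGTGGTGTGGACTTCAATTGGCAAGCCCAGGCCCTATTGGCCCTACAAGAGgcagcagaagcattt

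H2AFV RNAs differ in the last exon. The RNA of H2A.Z.2 with 128 residues ends its coding part in the exon at chr7:44834504-44834562 on the minus strand, and a longer RNA that codes for 114 residues ends it further downstream, at chr7:44830147-44830163. Both ends are shown with the coding bases of the last exon in capitals, after 15 bases of the exon that they share.
H2AFV, 128 residues: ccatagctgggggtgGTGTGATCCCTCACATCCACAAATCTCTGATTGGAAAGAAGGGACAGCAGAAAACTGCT
H2AFV, 114 residues: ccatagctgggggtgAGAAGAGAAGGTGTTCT

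All 8 members passed the filter on low values in every comparison. With JQ1, 3 of 8 were called higher in SU-DHL-5 (H2AFX, H2AFJ and H2AFV) and 0 lower, against 8.72% of all tested genes called higher and 12.1% called lower. The call of H2AFV was lost after centring genes of like length, where its log2 ratio was 0.46 and 2 members were called. The share of all genes called after centring was not computed. In Toledo, 0 of 8 were called in either direction, against backgrounds of 6.68% higher and 15.8% lower, and for a call in both lines the backgrounds were 3.65% higher and 7.39% lower. By the position of the libraries alone, whatever the size of the change, 6 of 8 members had both JQ1 libraries above the DMSO libraries and 2 of 8 below in SU-DHL-5, where 42.3% of all tested genes lay above and 38.0% below. The counts in Toledo were 4 of 8 above, against 29.7%, and 1 of 8 below, against 42.9%. The members on the same side in both lines were 4 above, namely H3F3A, H3F3B, H2AFV and H2AFX, and 1 below, H2AFY, while 24.4% of all tested genes lay above and 28.9% below in both. The median log2 ratio of the members was 0.47 (SU-DHL-5) and 0.23 (Toledo), and that of all tested genes was 0.02 and -0.06. From the first or the second libraries alone, the member median was 0.57 or 0.37 (SU-DHL-5) and 0.14 or 0.37 (Toledo).

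The lines were also fitted together in limma, with the line as a block, which compares JQ1 with DMSO over 2 pairs of samples and leaves 1 residual degree of freedom for each gene, so that most of the error estimate is borrowed from other genes. By an adjusted p under 0.05 in limma, 4 of 8 members rose (H3F3A, H3F3B, H2AFV and H2AFX), against 9.98% of all tested genes, and 1 of 8, H2AFY, fell, against 16.3%. The log2 changes were 0.55 ± 0.10 (SE) for H3F3B (limma adjusted p = 0.00354), 0.58 ± 0.11 for H2AFV (0.00374), 0.46 ± 0.10 for H3F3A (0.00811), 0.61 ± 0.14 for H2AFX (0.0116) and -0.34 ± 0.11 for H2AFY (0.0421). H2AFJ had 0.67 ± 0.28 (limma adjusted p = 0.0982), CENPA 0.03 ± 0.12 (0.89) and H2AFZ -0.03 ± 0.10 (0.846). Where the error was not allowed to vary with the level, 0 of 8 passed in limma, with adjusted p-values of 0.0592 to 0.902. Of the 9521 tested genes, 1090 passed in that setting, so the members' calls rest on letting the error vary. At an unadjusted limma p under 0.05 in that setting, 4 of 8 members passed. The share of all genes that did so was not computed, so that count has no background. The fit was chosen after the values were seen. In these bulk samples, fewer cells that make an RNA and less of it per cell cannot be told apart.

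**Figure D1:**
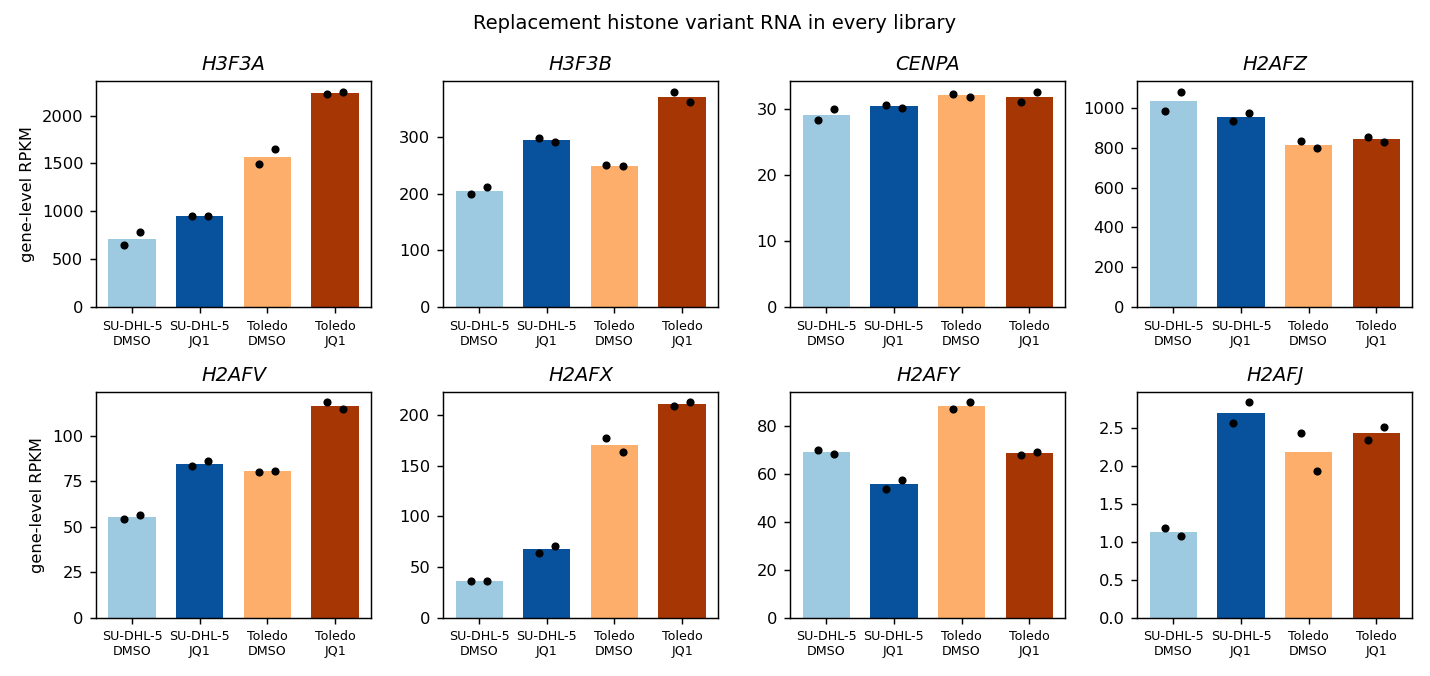
Gene-level RPKM of each member (vertical axes start at 0 and differ between panels) in the 4 samples. Bars are means and dots are the 2 libraries of a sample. H3F3A, H3F3B, H2AFV and H2AFX were higher with JQ1 in both lines, H2AFY was lower, and CENPA stayed between 28.3 and 32.6 RPKM.

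H3.3 is encoded by a pair of genes with the same protein product. H3F3A (chr1:226062707-226072002, plus strand) was at 648 and 781 RPKM in the DMSO libraries of SU-DHL-5 and at 951 and 952 RPKM with JQ1. The Toledo values were 1492 and 1651 RPKM with DMSO and 2225 and 2249 RPKM with JQ1. The JQ1 libraries were above the DMSO libraries in both lines, and all Toledo libraries were above all SU-DHL-5 libraries. For SU-DHL-5 the log2 ratio of JQ1 over DMSO was 0.41 (0.38 to 0.43), and for Toledo it was 0.51 (0.50 to 0.53). The DMSO libraries of SU-DHL-5 differed by 20.4%, so their spread was far wider than counting error.

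H3F3B (chr17:75776434-75779779, minus strand) was at 199 and 212 RPKM with DMSO and at 299 and 292 RPKM with JQ1 in SU-DHL-5. Toledo had 250 and 249 RPKM with DMSO and 380 and 362 RPKM with JQ1. The groups did not overlap in either line, and the log2 ratios were 0.52 (0.49 to 0.55) and 0.57 (0.55 to 0.60). Its fold of 1.49 in Toledo was just under the threshold, and that of H2AFV in SU-DHL-5, 1.53, was just over it.

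The sum of both H3.3 genes averaged 920 RPKM in the DMSO sample and 1247 RPKM in the JQ1 sample of SU-DHL-5, beside 1821 RPKM and 2608 RPKM for Toledo, while the share from H3F3A moved little with JQ1. That share was 76.5% and 78.6% in the DMSO libraries of SU-DHL-5 and 76.1% and 76.5% with JQ1. In Toledo it was 85.6% and 86.9% with DMSO and 85.4% and 86.1% with JQ1. The shares overlapped in Toledo and all but touched in SU-DHL-5, and the lines lay further apart than the treatments. The coding parts of H3F3A and H3F3B were identical at 320 of 408 bases, with a longest shared run of 14 bases, but processed copies of these genes elsewhere in the genome can still share reads with them.

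CENPA (chr2:26786014-26794589, plus strand), the histone H3 variant of centromeric nucleosomes, was nearly level. It was at 28.3 and 30.1 RPKM with DMSO and at 30.7 and 30.3 RPKM with JQ1 in SU-DHL-5. The DMSO libraries of Toledo gave 32.2 and 31.9 RPKM and its JQ1 libraries 31.1 and 32.6 RPKM. The Toledo libraries overlapped, and in SU-DHL-5 the JQ1 libraries were above by less than the DMSO libraries differed from each other. The log2 ratios were 0.06 (-0.05 to 0.17) and -0.01 (-0.11 to 0.10), so at this depth counting error alone spans 0.

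The RNA of CENPA without the exon shown above differed between the lines. CENPA_2, as the table numbers it, was at 1.55 and 1.22 RPKM with DMSO and at 1.30 and 1.42 RPKM with JQ1 in SU-DHL-5. For Toledo the levels were 5.31 and 3.60 RPKM with DMSO and 6.96 and 5.78 RPKM with JQ1. Every Toledo library was above every SU-DHL-5 library, and the log2 ratio of Toledo over SU-DHL-5 in DMSO was 1.62 (1.28 to 2.14). It made up 4.05% to 5.48% of the summed CENPA RPKM in the SU-DHL-5 libraries and 11.2% to 22.1% in the Toledo libraries. In Toledo the JQ1 shares of 22.1% and 17.5% lay above the DMSO shares of 16.3% and 11.2%, but the gap between them was smaller than the spread within each sample. These shares rest on 57 to 61 reads a sample in SU-DHL-5 and 206 to 279 in Toledo.

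H2A.Z comes from a pair of genes for proteins that differ at a few residues. H2AFZ (chr4:99948085-99950355, minus strand), the main source, was at 986 and 1082 RPKM with DMSO and at 934 and 976 RPKM with JQ1 in SU-DHL-5. In Toledo it was at 834 and 797 RPKM with DMSO and at 855 and 831 RPKM with JQ1. The JQ1 libraries were just below the DMSO libraries in SU-DHL-5 and overlapped them in Toledo. The log2 ratios were -0.11 (-0.14 to -0.10) and 0.05 (0.03 to 0.07), and the first became 0.00 after centring genes of like length, so no direction is given.

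H2AFV (chr7:44826889-44848126, minus strand), the minor source, was at 54.3 and 56.2 RPKM with DMSO and at 83.2 and 86.3 RPKM with JQ1 in SU-DHL-5. The Toledo values were 80.2 and 80.9 RPKM with DMSO and 118 and 115 RPKM with JQ1. The libraries stood apart in both lines, with log2 ratios of 0.62 (0.58 to 0.66) and 0.53 (0.50 to 0.57). The gene table divides its reads by all 4704 bases that any of its transcripts covers, although most of its RNA is far shorter. The 5 transcripts summed to 150.5 RPKM with DMSO and 245 RPKM with JQ1 in SU-DHL-5, beside 228 RPKM and 356 RPKM for Toledo.

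On that summed scale, H2AFZ gave 89.8% and 90.2% of H2A.Z RNA in the DMSO libraries of SU-DHL-5 and 83.5% and 83.7% with JQ1. In Toledo it gave 82.6% and 82.1% with DMSO and 75.5% and 75.6% with JQ1. The H2AFV part was larger with JQ1 in both lines and the libraries did not overlap, while the H2A.Z sum (DMSO, then JQ1) was 1500.0 RPKM and 1491 RPKM for SU-DHL-5, then 1291 RPKM and 1456 RPKM for Toledo. The coding parts of both genes were identical at 309 of 384 bases, with a longest shared run of 23 bases.

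The higher H2AFV level lay mainly, but not only, in the RNA for 128 residues, which had the largest log2 ratio of the gene's RNAs in each line. This RNA, H2AFV_5, was at 108 and 113 RPKM with DMSO and at 191 and 195 RPKM with JQ1 in SU-DHL-5. Toledo had 181 and 174 RPKM with DMSO and 304 and 298 RPKM with JQ1. The libraries stood apart, with log2 ratios of 0.80 (0.75 to 0.85) and 0.76 (0.72 to 0.80).

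The RNA for 114 residues, H2AFV_1, was at 20.4 and 19.9 RPKM with DMSO and at 21.7 and 23.2 RPKM with JQ1 in SU-DHL-5. The DMSO libraries of Toledo gave 22.8 and 25.4 RPKM and its JQ1 libraries 18.9 and 18.4 RPKM. The libraries stood apart in opposite directions, with log2 ratios of 0.15 (0.07 to 0.23) and -0.37 (-0.44 to -0.29), neither of which reached 1.5-fold. Its share of the summed H2AFV RPKM was lower with JQ1 in both lines, at 13.9% and 13.0% (DMSO) against 9.0% and 9.32% (JQ1) for SU-DHL-5. For Toledo it was 9.96% and 11.2% (DMSO) against 5.23% and 5.24% (JQ1). The other 3 H2AFV transcripts, each of which skips a different internal exon, were each between 3.54 and 13.7 RPKM, and the JQ1 libraries of each lay above the DMSO libraries in both lines.

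**Figure D2:**
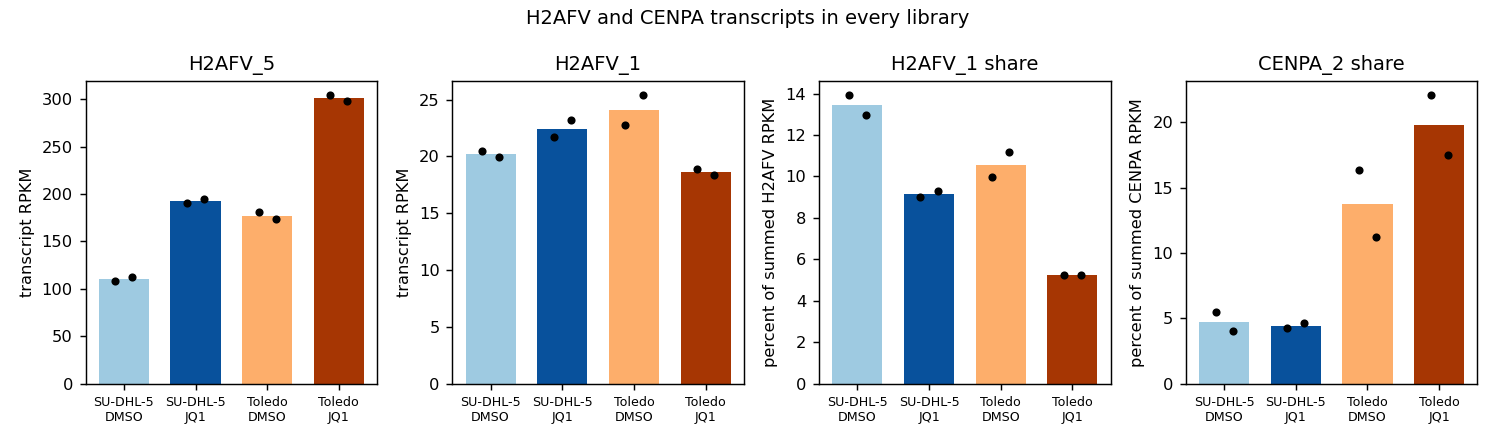
Transcript RPKM of H2AFV_5 (128 residues) and H2AFV_1 (114 residues), and the percent of summed transcript RPKM given by H2AFV_1 and by CENPA_2 (the exon-skipping form). Bars are means and dots the 2 libraries of a sample. H2AFV_5 was higher with JQ1 in both lines, and the H2AFV_1 share was 9.96% to 13.9% in the DMSO libraries and 5.23% to 9.32% in the JQ1 libraries.

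H2AFX (chr11:119093874-119095467, minus strand) has a single exon, and its RNA exists in a stem-loop form and a polyadenylated form, of which this kit keeps the latter. It was at 35.8 and 36.2 RPKM with DMSO and at 64.0 and 71.2 RPKM with JQ1 in SU-DHL-5. For Toledo the levels were 177 and 164 RPKM with DMSO and 209 and 213 RPKM with JQ1. The 4 samples did not overlap, in the order SU-DHL-5 with DMSO, SU-DHL-5 with JQ1, Toledo with DMSO and Toledo with JQ1. The log2 ratio of JQ1 over DMSO was 0.91 (0.82 to 0.99) for SU-DHL-5 and 0.31 (0.26 to 0.34) for Toledo, and that of Toledo over SU-DHL-5 in DMSO was 2.24 (2.18 to 2.32). Whether JQ1 acted differently in the lines was not tested.

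H2AFY was lower as a gene with JQ1, at 69.8 and 68.5 RPKM with DMSO and 53.6 and 57.6 RPKM with JQ1 in SU-DHL-5. In Toledo it was at 86.9 and 89.8 RPKM with DMSO and at 68.0 and 69.2 RPKM with JQ1. The groups did not overlap, and the log2 ratios were -0.31 (-0.36 to -0.28) and -0.36 (-0.40 to -0.33), neither of which reached 1.5-fold. Its span overlaps only C5orf66 in the table, at a mean of 0.19 RPKM.

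The macroH2A1 isoforms moved in opposite directions. macroH2A1.1, as H2AFY_4, was at 16.6 and 17.8 RPKM with DMSO and at 26.6 and 28.3 RPKM with JQ1 in SU-DHL-5. The Toledo values were 30.3 and 32.9 RPKM with DMSO and 49.7 and 52.5 RPKM with JQ1. The libraries stood apart, and the log2 ratios of 0.67 (0.56 to 0.78) and 0.69 (0.61 to 0.78) were close to each other. The macroH2A1.2 exon is carried by H2AFY_3 and H2AFY_5, which differ by 3 bases at the exon that precedes it in the RNA. H2AFY_3 matched GENCODE in its internal exons, with the end exons of another transcript of the gene.

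H2AFY_3, the most abundant of the gene's RNAs, was at 103 and 94.4 RPKM with DMSO and at 69.6 and 75.3 RPKM with JQ1 in SU-DHL-5. Toledo had 116 and 132 RPKM with DMSO and 83.4 and 88.6 RPKM with JQ1. Both lines were lower with JQ1 without overlap, with log2 ratios of -0.45 (-0.51 to -0.39) and -0.53 (-0.57 to -0.47).

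H2AFY_5 was at 50.6 and 55.2 RPKM with DMSO and at 34.6 and 35.8 RPKM with JQ1 in SU-DHL-5. The DMSO libraries of Toledo gave 65.2 and 53.0 RPKM and its JQ1 libraries 28.3 and 25.5 RPKM. It was lower with JQ1 in both lines as well, with log2 ratios of -0.59 (-0.67 to -0.51) and -1.13 (-1.22 to -1.06).

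macroH2A1.1 thus made up more of the H2AFY RNA with JQ1. Its share of the summed RPKM of the 7 listed transcripts was 9.61% and 10.5% with DMSO and 20.0% and 19.8% with JQ1 in SU-DHL-5. In Toledo it was 14.1% and 14.8% with DMSO and 29.6% and 30.7% with JQ1. All JQ1 libraries were above all DMSO libraries across the lines, and Toledo was above SU-DHL-5 under both treatments. The rule of 1.5-fold and libraries apart was also applied to shares, in genes with several transcripts. Among 12 member transcripts tested in both lines, 2 were called higher in both, macroH2A1.1 and the rare H2AFY_2, against 1.36% of all transcripts tested, and 0 lower, against 2.87%. H2AFY_2 had no matching chain and made up 0.74% to 3.01%. H2AFY_1, H2AFY_6 and H2AFY_7 each stayed at 0.76% or less.

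**Figure D3:**
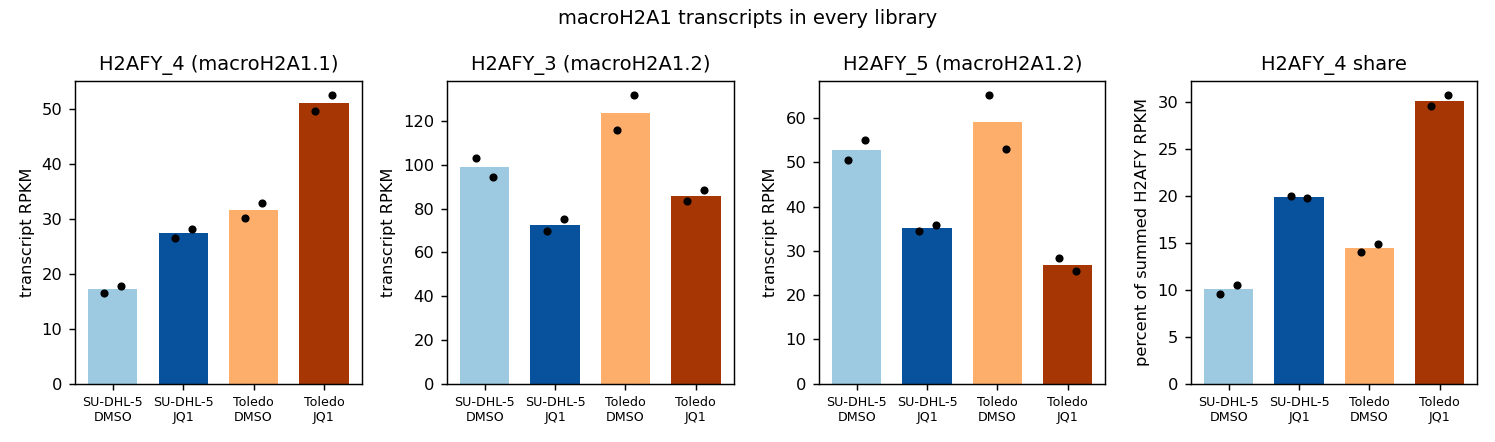
Transcript RPKM of macroH2A1.1 (H2AFY_4) and of both RNAs with the macroH2A1.2 exon (H2AFY_3, H2AFY_5), and the percent of summed H2AFY RPKM given by macroH2A1.1. Bars are means and dots the 2 libraries of a sample. The macroH2A1.1 share was 9.61% to 14.8% in the DMSO libraries and 19.8% to 30.7% in the JQ1 libraries.

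At the level of transcripts, 3 of 16 members tested in both lines were called higher in both, namely H2AFV_2, H2AFV_5 and H2AFY_4, against 4.42% of all transcripts tested. H2AFY_5 was the 1 called lower in both, against 8.2%. How reads in shared exons were divided among transcripts is not given in the sources used here, but the transcript reads summed to 99.96% to 100% of the gene reads for every member.

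H2AFJ (chr12:14774336-14778002, plus strand), an H2A variant that differs from canonical H2A mainly at its carboxyl end and accumulates in senescent cells, was the scarcest member. It was at 1.18 and 1.08 RPKM with DMSO and at 2.56 and 2.84 RPKM with JQ1 in SU-DHL-5, on 135 and 307 reads over both libraries. For Toledo the levels were 2.44 and 1.93 RPKM with DMSO and 2.35 and 2.52 RPKM with JQ1. The libraries stood apart in SU-DHL-5, where the log2 ratio was 1.19 (0.96 to 1.56), and overlapped in Toledo, where it was 0.15 (-0.10 to 0.39). With 1 RPKM added in place of 0.1, the SU-DHL-5 value was 0.80. The coding parts of H2AFJ and H2AFX were identical at 322 of 429 aligned positions, with a longest shared run of 44 bases. Whether these genes share reads was not measured.

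**Figure D4:**
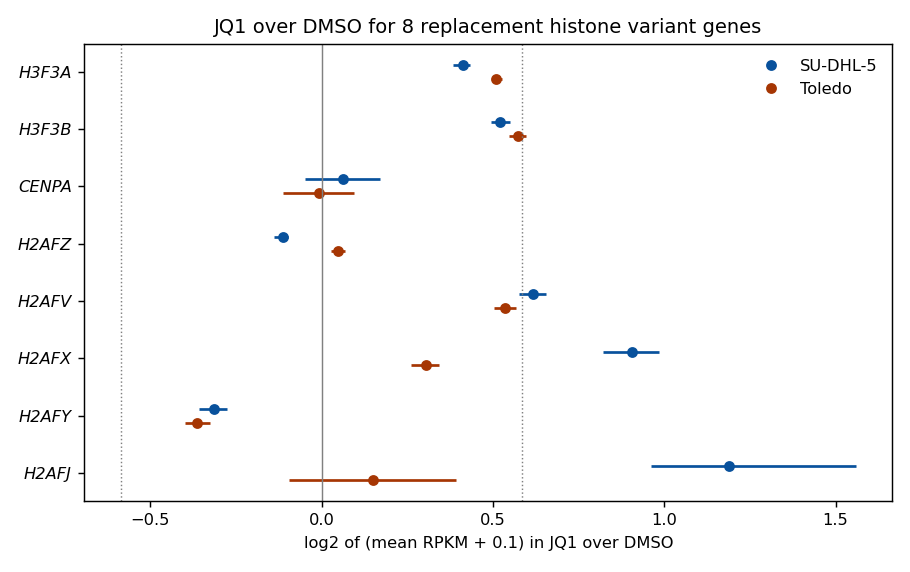
Log2 ratio of JQ1 over DMSO (horizontal axis) of each member in SU-DHL-5 and Toledo. Points are ratios of sample means, lines are 95% intervals of counting error, and dotted lines mark 1.5-fold. Intervals of H3F3A, H3F3B, H2AFV and H2AFX lay above 0 in both lines and those of H2AFY below.

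Between the untreated lines, 3 of 8 members were called higher in Toledo (H2AFX, H3F3A and H2AFJ) and 0 lower, where 25.5% of all tested genes were called higher and 23.7% lower. By position alone, 7 of 8 members had their Toledo libraries above those of SU-DHL-5, against 42.2% of all tested genes, and 1 of 8 below, against 42.3%. With 1 RPKM added in place of 0.1, H2AFJ fell short of the threshold at a log2 ratio of 0.58 and 2 members were called. With a filter of 10 RPKM 2 members were called as well. The shares of all genes called under these settings were not computed. H2AFX stood 4.73-fold higher, H3F3A 2.20-fold and H2AFJ 1.86-fold. H2AFZ was the 1 member whose Toledo libraries lay below those of SU-DHL-5, at a log2 ratio of -0.34 (-0.37 to -0.32). The median of the members was 0.45 and that of all tested genes -0.01.

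Levels were compared between genes on the summed transcript RPKM, which divides each listed transcript by its own length. The only H2AFJ transcript, of 3666 bases, had no matching chain, so its length was not checked against GENCODE. With DMSO in SU-DHL-5 the order was H2AFZ (1349 RPKM), H3F3A (715), H3F3B (206), H2AFY (171), H2AFV (150.5), H2AFX (36.0), CENPA (29.3) and H2AFJ (1.13). With JQ1 in Toledo it was H3F3A (2237 RPKM), H2AFZ (1100), H3F3B (371), H2AFV (356), H2AFX (211), H2AFY (169), CENPA (32.3) and H2AFJ (2.43). The means of the neighbours H3F3B and H2AFV in the latter order differed by less than the H3F3B libraries did from each other.

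The 4 genes that were higher in both lines are shown with the 250 bases before their transcription start. The sequences are from RefSeq (GRCh38.p14), where all 8 members matched, with the start nearest to that of the gene table. CCAAT, the letters that the factor NF-Y is known to bind, was searched on both strands (CCAAT or ATTGG) and is in capitals.
H3F3A, chr1:226062466-226062715, plus strand: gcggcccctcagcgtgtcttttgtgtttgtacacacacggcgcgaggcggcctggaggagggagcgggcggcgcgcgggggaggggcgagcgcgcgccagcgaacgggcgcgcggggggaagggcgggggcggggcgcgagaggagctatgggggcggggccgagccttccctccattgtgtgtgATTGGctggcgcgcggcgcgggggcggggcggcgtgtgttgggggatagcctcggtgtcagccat
H3F3B, chr17:75779780-75780029, minus strand: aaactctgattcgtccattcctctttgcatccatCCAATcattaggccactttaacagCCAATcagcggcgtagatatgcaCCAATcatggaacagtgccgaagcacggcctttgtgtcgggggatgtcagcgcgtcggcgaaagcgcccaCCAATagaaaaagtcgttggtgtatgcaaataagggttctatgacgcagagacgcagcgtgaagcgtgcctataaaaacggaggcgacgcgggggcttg
H2AFV, chr7:44848088-44848337, minus strand: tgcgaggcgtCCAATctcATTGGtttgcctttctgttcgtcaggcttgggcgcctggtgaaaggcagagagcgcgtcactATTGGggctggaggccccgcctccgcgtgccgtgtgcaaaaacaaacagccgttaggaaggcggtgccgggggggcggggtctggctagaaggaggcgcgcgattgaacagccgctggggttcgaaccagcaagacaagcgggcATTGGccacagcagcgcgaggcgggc
H2AFX, chr11:119095466-119095715, minus strand: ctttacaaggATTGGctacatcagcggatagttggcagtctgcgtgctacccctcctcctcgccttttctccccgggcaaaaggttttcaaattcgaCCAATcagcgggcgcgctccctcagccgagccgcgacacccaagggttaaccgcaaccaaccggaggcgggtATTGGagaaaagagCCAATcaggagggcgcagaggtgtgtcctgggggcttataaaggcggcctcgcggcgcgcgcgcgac

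All 8 members held at least 1 CCAAT match in these 250 bases, against 32.0% of 35116 RefSeq promoter windows of that length. There were 4 matches each for H3F3B, H2AFV and H2AFX, a number reached by 0.874% of windows. H2AFZ and H2AFJ held 3 each, CENPA and H2AFY 2 each and H3F3A 1. The members that were not higher with JQ1 in both lines thus held CCAAT as well. TATAAA (or TTTATA) was found for H2AFX, H2AFZ and H3F3B, against 10.7% of windows, TTTGAA (or TTCAAA) for H2AFX and CENPA, against 13.3%, and CACGTG for none, against 6.34%. None of these motifs overlaps another in its letters, and a match is a description of sequence only.

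Genes that load or remove the variants were taken as lists by function. Of 14 genes for H2A.Z deposition and removal, 2 were called lower in each line and 0 higher. Among all tested genes, 12.1% (SU-DHL-5) and 15.8% (Toledo) were called lower, and 8.72% and 6.68% higher. The list medians of the log2 ratio were -0.07 (SU-DHL-5) and -0.26 (Toledo). The genes called lower were the same in both lines, ANP32E, a chaperone that takes H2A.Z off chromatin, and KAT5, the acetyltransferase of the TIP60 complex. ANP32E was at 65.5 and 72.7 RPKM with DMSO and at 41.8 and 43.6 RPKM with JQ1 in SU-DHL-5. In Toledo it was at 71.9 and 93.9 RPKM with DMSO and at 52.6 and 54.5 RPKM with JQ1. KAT5 had log2 ratios of -0.67 and -0.77, and the ATPase genes SRCAP (0.38 and 0.14), EP400 (0.38 and 0.18) and RUVBL2 (-0.30 and -0.32) were not called.

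Of the H3.3 deposition genes, 7 were tested in SU-DHL-5 and 8 in Toledo. UBN1, a subunit of the HIRA complex, was the 1 called higher in SU-DHL-5 (log2 ratio 0.59, and 0.33 in Toledo), against 8.72% of all tested genes. Its fold of 1.502 in SU-DHL-5 was just over the threshold. DAXX, the H3.3 chaperone that works with ATRX, was the 1 called lower in Toledo (-0.60, and -0.45 in SU-DHL-5), against 15.8% of all tested genes. CABIN1, another partner of HIRA, had ratios of 0.18 and 0.55, and ATRX 0.37 and -0.09. The list medians were 0.18 and 0.04.

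For CENP-A, the deposition genes HJURP, MIS18A and OIP5 were not called in either line. HJURP, the CENP-A chaperone, had log2 ratios of -0.12 and -0.13, MIS18A -0.15 and -0.35, and OIP5 0.29 and 0.01. Among 15 tested genes of the constitutive centromere network 0 were called, with medians of 0.01 and -0.31 and the largest mean changes for CENPT, CENPO, ITGB3BP and CENPQ, all with ratios below 0. In Toledo 11 of these 15 lay below their DMSO libraries, against 42.9% of all tested genes, and in SU-DHL-5 5 of 15, against 38.0%.

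Among 10 genes for kinases and readers of phosphorylated H2A.X, MDC1, the scaffold that binds it, was called lower in both lines. Of all tested genes, 7.39% were called lower in both. MDC1 was at 8.77 and 7.49 RPKM with DMSO and at 5.16 and 5.03 RPKM with JQ1 in SU-DHL-5. The Toledo values were 12.6 and 15.8 RPKM with DMSO and 7.54 and 7.29 RPKM with JQ1. The kinases ATM (0.51 and 0.25) and ATR (0.36 and 0.26) and the ubiquitin ligase RNF168 (0.34 and 0.25) were not called. The list medians were 0.07 and 0.03.

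Of 6 splicing regulators linked to the macroH2A1 exon choice, 0 were called in SU-DHL-5 and 1 lower in Toledo, against 15.8% of all tested genes. This was RBFOX2, with log2 ratios of -0.09 and -0.86. QKI, which favours the macroH2A1.1 exon, had ratios of 0.28 and -0.02 and MBNL2 0.41 and -0.20. DDX17, a helicase, had 0.25 and 0.17. The list medians were 0.18 and -0.10, and their part in the isoform shares was not tested.

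Of 14 replication-coupled and general histone chaperones, 2 were called lower in SU-DHL-5, against 12.1% of all tested genes. In Toledo 3 were, against 15.8%, and the list medians were -0.10 and -0.19. SSRP1, a subunit of FACT, was at 194 and 178 RPKM with DMSO and at 106 and 107 RPKM with JQ1 in SU-DHL-5. Toledo had 199 and 214 RPKM with DMSO and 93.5 and 97.1 RPKM with JQ1. MCM2, the helicase subunit that holds H3 and H4 at forks, had log2 ratios of -0.67 and -0.79. CHAF1A, of the CAF-1 complex, had -0.49 and -0.71, and IPO4, an importin for H3 and H4, had -0.41 and -0.53.

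S phase and mitotic markers are given beside these values because histone RNA follows the cell cycle. Of 11 S phase markers, 3 were called lower in SU-DHL-5 (MCM5, MCM7 and CDT1), against 12.1% of all tested genes. In Toledo 4 were (those and MCM6), against 15.8%. The median log2 ratios of these markers were -0.25 and -0.50. Their summed level was 1913 to 1914 RPKM with DMSO and 1600.0 to 1650.0 RPKM with JQ1 in SU-DHL-5. In Toledo the sum was 1663 to 1671 RPKM with DMSO and 1180.0 to 1184 RPKM with JQ1. None of 13 G2 and M phase markers was called in either line, with PLK1 (-0.58 and -0.46) and AURKA (-0.41 and -0.43) the farthest from 0 over both lines. Of the 6 B cell markers, 5 (SU-DHL-5) and 4 (Toledo) were called lower, against 12.1% and 15.8% of all tested genes. Of the markers of other cell types only COL1A1 passed the filter, in Toledo, at 2.29 and 2.72 RPKM with DMSO and 0.23 and 0.40 RPKM with JQ1. The part of the S phase markers and of the lower B cell markers in the variants' values was not tested.

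The replication-dependent histone genes of the clusters are given for comparison. The kit keeps polyadenylated RNA, but whether their reads came from polyadenylated copies was not measured, and near-identical genes can share reads. Of 75 cluster histone genes, 22 passed the filter in SU-DHL-5. Of these, 20 were called higher, against 8.72% of all tested genes, and 0 lower. In Toledo 33 cluster histone genes passed, of which 30 were called higher, against 6.68%, and 0 lower. Their median log2 ratio was 2.85 (SU-DHL-5) and 2.50 (Toledo), with ranges of 0.01 to 3.75 and 0.14 to 3.56 that overlapped those of the variants, and genes that passed only through their JQ1 level are among them. Their summed level was 145 and 160.2 RPKM with DMSO and 1000.0 and 1005 RPKM with JQ1 in SU-DHL-5, beside 229 and 205 RPKM and 1315 and 1281 RPKM in Toledo. HIST1H1C, the most abundant by the mean of the 8 libraries, was at 82.8 and 95.2 RPKM with DMSO and at 682 and 679 RPKM with JQ1 in SU-DHL-5, and HIST1H2BK had log2 ratios of 1.66 and 2.12.

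**Figure D5:**
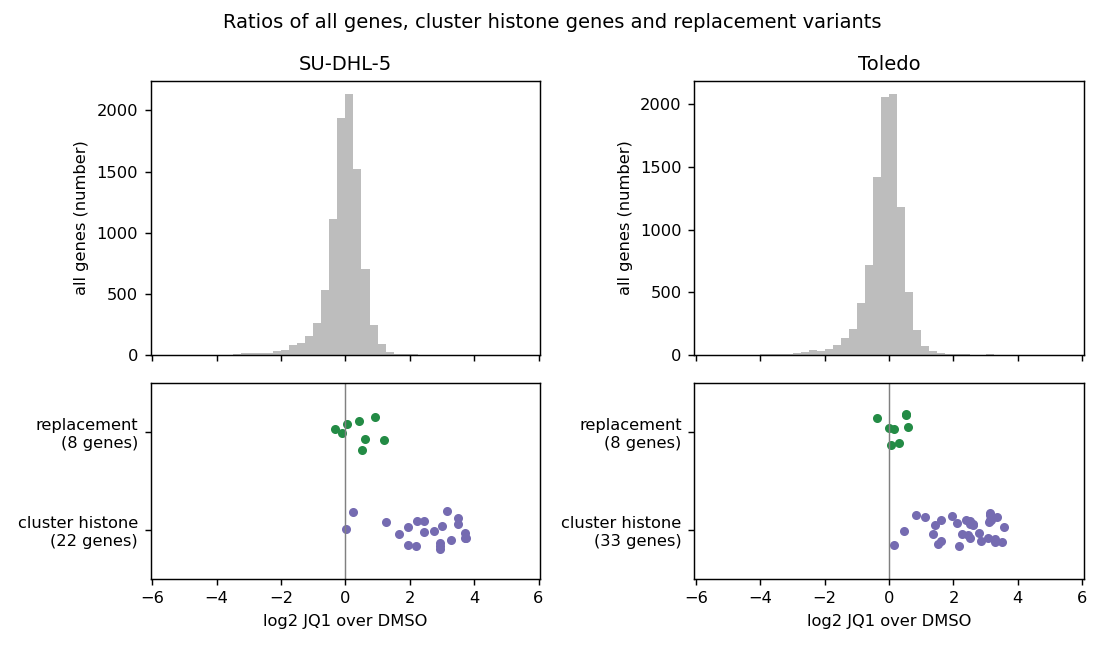
Log2 ratio of JQ1 over DMSO (horizontal axes, shared) in SU-DHL-5 and Toledo. The upper panels count all genes that passed the filter in bins of the ratio, and the lower panels show each replacement variant and each cluster histone gene that passed, with vertical scatter for legibility. The variants lay between -0.31 and 1.19 in SU-DHL-5 and between -0.36 and 0.57 in Toledo, and the cluster histone genes between 0.01 and 3.75 and between 0.14 and 3.56.

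Of 10 other polyadenylated variant genes, 1 passed the filter, H1FX, which encodes a linker histone. It was called higher in both lines, as were 3.65% of all tested genes. H1FX was at 98.5 and 97.4 RPKM with DMSO and at 229 and 222 RPKM with JQ1 in SU-DHL-5. The DMSO libraries of Toledo gave 267 and 251 RPKM and its JQ1 libraries 599 and 640 RPKM. Its log2 ratios were 1.2 and 1.26. Of 7 genes that process the stem-loop histone RNAs, LSM11, of the U7 particle, was called lower in both lines (log2 ratios -0.91 and -0.94). ZNF473 was called lower in Toledo (-0.48 and -0.60). Of all tested genes, 7.39% were called lower in both lines and 15.8% in Toledo. SLBP, which binds the stem-loop, had 0.25 and 0.09, and LSM10 and CASP8AP2 were not called. The list medians were -0.01 and -0.29.

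The genes whose pattern over the 4 samples was most like that of each member were ranked among 9521 genes by the distance of their log2 levels after the mean of each gene was subtracted. They were LMBR1 and KAT6A for H2AFV (distances 0.03 and 0.05), PRDM2 and COL4A3BP for H3F3B (0.06 and 0.08), and NFIL3 and ZNF92 for H3F3A (0.05 and 0.07). MGAT1 and KIF18B were nearest to H2AFY (0.01 and 0.05), AP1M1 and TCEB2 to CENPA (0.01 and 0.02), and AXIN1 and NECAB3 to H2AFZ (0.02 and 0.04). H2AFX (HSDL1 and TMEM181, 0.13 and 0.16) and H2AFJ (MAPK8IP3 and WIPI1, 0.17 and 0.19) had no gene as close.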

How the data were processed

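RNA of 4 samples (2 cell lines, DMSO or JQ1) was measured in 8 libraries. The deposited tables hold RPKM, a level that the authors scaled by feature length and mapped reads, for genes and for transcripts. Per the submitters' processing notes, CASAVA 2.0 and GRCh38 (hg38) were used; the aligner, counting, its use of strand and the annotation are not given in the sources used here. Mapped reads per library and feature lengths were recovered from the values, which gave whole reads for 14942 of 14944 genes with a value and 44036 of 44041 transcripts. The recovery and the call rule were tested on simulated data with counting error only. Wider spread between libraries was not simulated. The reads served only for 95% exact binomial intervals of JQ1 against DMSO reads (scipy 1.17.1), which cover counting error only. PCR reads are not independent molecules.

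Libraries of a sample were averaged and counted as 1. Ratios are log2 with 0.1 RPKM added, so that the change of low genes is understated. No difference within a line was tested. A limma fit (limma 3.58.1, R 4.3.3) of the 4 sample means had the line as a block and a trend of error with level. Its p-values were adjusted over 9521 genes. This fit was added after the data were seen, and checked only on data simulated with its own error estimates. The members and lists were chosen with earlier results of these data known. Named genes were the 8 members, the 2 nearest genes of each, up to 4 genes per list with the largest mean absolute ratio over both lines, the 4 most abundant cluster histone genes at most, and HJURP, ANP32E, SLBP, SRCAP, HEXIM1 and MYC. 1 gene that this rule names is left out of the text. Exon chains and sequences came from GENCODE release 29, promoters from RefSeq, and coding parts were aligned with biopython 1.88. Figures were drawn with matplotlib 3.10.9 in python 3.11.15, with pandas 2.3.3 and numpy 2.4.6. Alternatives were pseudocounts of 1 and 0.01 RPKM, no filter or one of 10 RPKM, 2-fold, scaling by the median ratio, centring on length over 401 genes, summed transcript values, the fold of the means alone, and each library alone.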

Additional observations from a re-analysis of the deposited data

Results flagged for a closer look

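The H2AFV transcript that codes for 114 residues (H2AFV_1) moved in opposite directions in the lines: in SU-DHL-5 its JQ1 libraries both exceeded its DMSO libraries, and in Toledo they both lay below. The folds, 1.11 in SU-DHL-5 and 0.78 in Toledo, did not reach 1.5-fold, and how many transcripts split this way was not counted. Its log2 ratio in SU-DHL-5 exceeded that in Toledo by 0.52. The difference was not tested, since each condition had 1 sample. Its share of the H2AFV RNA was lower with JQ1 in both lines.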

How the results depend on the processing

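Of 279 values recomputed under alternatives outside the limma fit, 248 were held as the same, 31 moved and 0 reversed a called value. A ratio or share was held as the same when it moved by less than the spread between libraries or the counting error. Counts of called members are among the values and have no such error, and a change from 3 to 2 was held as the same. Centred on length, 2 members in place of 3 were called higher in SU-DHL-5. At 2-fold, 1 member (H2AFJ) in place of 3 was called higher with JQ1 in SU-DHL-5. Scaled by the median ratio, 2 members in place of 0 were called higher in Toledo (H2AFV and H3F3B), and centred on length also 2 (H3F3A and H3F3B). The share of all genes called was not computed under these alternatives, so whether the member counts exceed it cannot be told. The median log2 ratio of Toledo over SU-DHL-5 in DMSO, 0.45, was 0.46 when scaled by the median ratio, 0.47 with transcript values summed, 0.46 from the second libraries alone and 0.49 when centred on length. The scaling shifts all ratios of a comparison by the same amount, and the cause of the other moves was not tested. The H2AFZ share of H2A.Z RNA was 94.9% and 91.9% in SU-DHL-5 (DMSO and JQ1) and 91.01% and 87.9% in Toledo from the gene table, above the values from summed transcripts. In the limma fit paired by line (the replicate block, chosen after seeing the data), 4 members rose and 1 fell. Without a trend of error with level 0 and 0 did, where 1090 of 9521 genes passed in either direction. With 1 RPKM added 4 rose and 0 fell (H2AFY, limma adjusted p = 0.0524). The cause was not tested. Depth limits H2AFJ and CENPA_2, with 135 to 307 and 57 to 279 reads a sample.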
